A study of Homo sapiens with 12 samples.

Results

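The type I interferon response genes analysed here are 41 genes known to be induced by interferon, chosen by name and matched by symbol to the Ensembl identifiers of the expression tables. All 41 were found among the 62703 identifiers. RNA of HK2 cells, an immortalised human line from the proximal tubule, the kidney segment that reabsorbs most of the filtered glucose, had been sequenced in 12 libraries, 3 in each of 4 groups, to ask how high glucose and the growth factor FGF9 change gene expression. NG cells received a control vector in 5.5 mM glucose. HG cells were kept in 50 mM glucose. The si-FGF9 cells were transfected with a small interfering RNA against FGF9 in 5.5 mM glucose, and no non-targeting siRNA is described for them, so that an effect of siRNA transfection itself and of FGF9 cannot be told apart in si-FGF9 versus NG. HG + OE-FGF9 cells carried a lentivirus vector for FGF9 overexpression in 50 mM glucose. All groups were grown in DMEM/F-12 medium with 10% fetal bovine serum. Elsewhere the study describes the control medium as one with mannitol and the FGF9 vector as an adenovirus, and no empty vector is named for the HG or si-FGF9 cells, so the groups may differ in more than glucose and FGF9. The labels do not say whether replicates were separate cultures, so p-values measure only the spread between these libraries.

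Interferon response genes form the effector arm of innate antiviral defence. RNA sensors such as RIG-I and MDA5 lead to secretion of interferon beta, which binds the IFNAR1/IFNAR2 receptor and activates the kinases JAK1 and TYK2. These phosphorylate STAT2, which joins IRF9 in the complex ISGF3 and binds the interferon-stimulated response element (ISRE) in the promoters of the response genes. Tubular epithelial cells can mount this response without immune cells.

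The values are TPM (transcript abundances per gene, scaled by the authors to the same sum in each library), so the depth of the libraries is unknown. A limma fit on log2(TPM + 1) over all 12 libraries covered 14639 genes, those reaching 1 TPM in 3 libraries. On this scale the change of weakly expressed genes is understated. A gene was called differentially expressed, either higher or lower, where its log2 fold change was 1 or more in size and its unadjusted p was under 0.01. Benjamini-Hochberg adjusted p-values are given beside it. An exact permutation test of a single gene with 3 libraries a group cannot give a p below 0.1. Of the 41 members 38 were tested. MX1 (0.2 to 1.12 TPM over the 12 libraries), XAF1 (0 to 0.66) and SAMD9 (0.03 to 1.05) were too low, and 3 of those tested (CMPK2, SAMD9L and EPSTI1) were under 1 TPM in every si-FGF9 and HG + OE-FGF9 library and passed only through NG and HG libraries.

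Between 11549 and 13949 genes per library reached 1 TPM. FGF9 was listed at 0 in all 9 libraries of NG, HG and si-FGF9, so that a knockdown could not be seen, and at 3.34, 4.03 and 3.82 TPM in HG + OE-FGF9 (adjusted p 1.88e-06). Of 9 proximal tubule markers 6 stayed under 1 TPM in all libraries, LRP2, CUBN and HNF4A among them, but GGT1 was at 71.65 to 195 TPM. The summed TPM of this list ranged from 73.5 to 86.2 in NG, 99.4 to 141 in HG, 177 to 197 in si-FGF9 and 84.5 to 92.95 in HG + OE-FGF9. PAX8, of the renal lineage, was at 19.7 to 79.1 TPM and lower in HG + OE-FGF9 versus HG (log2 fold change -1.31). The part of these markers in the results was not tested. The epithelial keratins KRT8, KRT18 and KRT19 were between 211 and 678 TPM, with CDH1, the epithelial cadherin, at most at 0.28 TPM. Most of the defining transcripts of the labelled cell type were thus near 0. Of 13 immune cell markers 9 were under 1 TPM in all libraries and 2 were at 0 in all, with PTPRC, which marks all leukocytes, at most at 0.07 TPM. CD68, however, was at 108 to 159 TPM over the 12 libraries, and CD14 reached 3.9, LYZ 2.43 and CSF1R 2.06 TPM. Without CD68, which made up most of it, the summed TPM of the list ranged from 3.33 to 3.46 in NG, 1.86 to 4.67 in HG, 2.88 to 3.07 in si-FGF9 and 3.23 to 6.8 in HG + OE-FGF9. Of 9 fibroblast and endothelial markers 6 were under 1 TPM in all libraries, and their summed TPM, mostly from LUM, ranged from 62.4 to 89.2 in NG, 17.2 to 40.95 in HG, 11.7 to 21.0 in si-FGF9 and 11.8 to 22.5 in HG + OE-FGF9. The part of LUM in the results on interferon response genes was not tested. Mitochondrial transcripts took 4.94 to 8.6% of the TPM in si-FGF9 and 11.3 to 15.6% in the other libraries. Small nuclear and nucleolar RNAs summed to 10844, 10015 and 3544 TPM in HG + OE-FGF9 replicates 1, 2 and 3 and to at most 721 in any other library.

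Promoters (250 bases before to 50 after the start of transcription, RefSeq, GRCh38.p14) were at hand for 34 of the 41 members. The ISRE core, taken as GAAA, any 2 bases and GAAA again and searched on both strands, was present in 21 of the 34 (61.8%), against 996 of 27305 promoters of all genes (3.65%). A match is a description of the letters and not a binding site. The 13 members without this exact pattern in the window include RIGI, STAT2, IRF9, OAS1, PARP9 and UBE2L6. Among the 13, OAS1, RIGI, RSAD2 and XAF1 hold GAAACGAAA, with only a C between the 2 GAAA, which the pattern does not count. A member without a match thus need not lack an ISRE. The core of the GAS element of STAT dimers, TTC, any 3 bases and GAA, was present in 9 of 34 (26.5%) against 7.88% of all promoters, and 3 of its 10 matches overlapped an ISRE match. The promoters chosen here are those of ISG15, the member with the largest increase in HG and si-FGF9, DDX60 and IFIT1, which were among the largest decreases in si-FGF9, IFI6, the largest decrease in HG + OE-FGF9, and OAS1, which fell there and has no match to the pattern. The capitals mark ISRE matches, and each sequence runs 5′ to 3′ on the strand of its gene.
ISG15 (chr1:1013247-1013546, plus strand): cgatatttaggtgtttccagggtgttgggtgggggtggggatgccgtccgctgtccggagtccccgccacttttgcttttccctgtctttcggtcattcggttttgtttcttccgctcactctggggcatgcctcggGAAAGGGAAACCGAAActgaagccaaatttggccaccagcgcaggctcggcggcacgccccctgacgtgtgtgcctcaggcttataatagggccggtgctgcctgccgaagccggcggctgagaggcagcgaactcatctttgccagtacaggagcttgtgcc
DDX60 (chr4:168318703-168319002, minus strand): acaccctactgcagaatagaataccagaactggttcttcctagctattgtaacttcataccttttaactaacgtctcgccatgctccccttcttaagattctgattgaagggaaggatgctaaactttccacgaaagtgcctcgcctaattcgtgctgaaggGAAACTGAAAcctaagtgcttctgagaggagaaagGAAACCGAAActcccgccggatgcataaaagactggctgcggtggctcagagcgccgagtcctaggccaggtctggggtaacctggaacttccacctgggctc
IFIT1 (chr10:89392373-89392672, plus strand): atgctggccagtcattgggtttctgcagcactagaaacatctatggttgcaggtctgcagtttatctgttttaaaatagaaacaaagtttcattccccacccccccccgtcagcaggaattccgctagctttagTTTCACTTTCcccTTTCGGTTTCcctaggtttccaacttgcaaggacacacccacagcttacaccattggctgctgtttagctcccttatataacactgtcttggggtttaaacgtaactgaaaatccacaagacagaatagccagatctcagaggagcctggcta
IFI6 (chr1:27672143-27672442, minus strand): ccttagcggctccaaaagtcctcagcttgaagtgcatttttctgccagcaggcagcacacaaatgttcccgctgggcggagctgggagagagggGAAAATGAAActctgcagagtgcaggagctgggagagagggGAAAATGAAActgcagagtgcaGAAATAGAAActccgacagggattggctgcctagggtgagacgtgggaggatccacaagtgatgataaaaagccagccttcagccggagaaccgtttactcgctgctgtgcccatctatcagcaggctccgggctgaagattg
OAS1 (chr12:112906712-112907011, plus strand): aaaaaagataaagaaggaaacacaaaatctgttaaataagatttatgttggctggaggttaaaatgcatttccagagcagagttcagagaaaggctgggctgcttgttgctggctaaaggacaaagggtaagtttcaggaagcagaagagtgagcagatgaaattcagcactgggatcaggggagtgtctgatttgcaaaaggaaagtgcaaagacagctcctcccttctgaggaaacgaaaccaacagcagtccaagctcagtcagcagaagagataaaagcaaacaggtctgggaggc

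The 2 matches of ISG15 overlap and begin 113 and 107 bases before the start site, those of IFIT1 at 116 and 103 bases and those of DDX60 at 88 and 53 bases. IFI6 holds 3 matches, at 156, 115 and 93 bases, the first 2 of them within a repeated stretch. The matches of ISG15, IFI6 and DDX60 lie on the strand of the gene and those of IFIT1 on the opposite strand.

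By position, 22 members lie in 9 clusters in which each gene is within 200 kb of the next (GENCODE 29, GRCh38). The IFIT genes, whose products bind foreign RNA, lie together on chromosome 10 from 89283694 to 89421001. OAS1, OAS3 and OAS2, which make the 2-5A messenger that activates RNase L, lie on chromosome 12 from 112906777 to 113011723. PARP9, DTX3L and PARP14, which modify proteins by ADP-ribosylation or ubiquitination, lie on chromosome 3 from 122527924 to 122730840. The other clusters are IFI44L with IFI44, CMPK2 with RSAD2, MX2 with MX1, HERC6 with HERC5, DDX60 with DDX60L and SAMD9 with SAMD9L. DDX60 and DDX60L are close relatives, and how reads shared by such pairs were divided is not given in the sources used here.

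The level of the members spanned a wide range. As means over all 12 libraries, BST2, IFI6, ISG15 and IFI27 exceeded 100 TPM, 17 members lay between 10 and 100 TPM, 15 between 1 and 10 TPM and 5 below 1 TPM. BST2, a membrane tether of budding virions, ranged from 439 to 675 TPM. The summed TPM of all members was 2619 to 2700 in NG, 2333 to 3037 in HG, 2024 to 2247 in si-FGF9, and HG + OE-FGF9 gave 1421, 1425 and 2038. Without the 4 most abundant members the sum was 835 to 963 in NG, 611 to 730 in HG, 347 to 397 in si-FGF9, and HG + OE-FGF9 gave 334, 332 and 507. By either sum, HG + OE-FGF9 replicate 3 was nearer the HG libraries than replicates 1 and 2 were. It was the highest of its group in 33 of the 38 members tested and the lowest in 4. HG replicate 3 was the lowest of its group in 17 and the highest in 12.

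**Figure D1:**
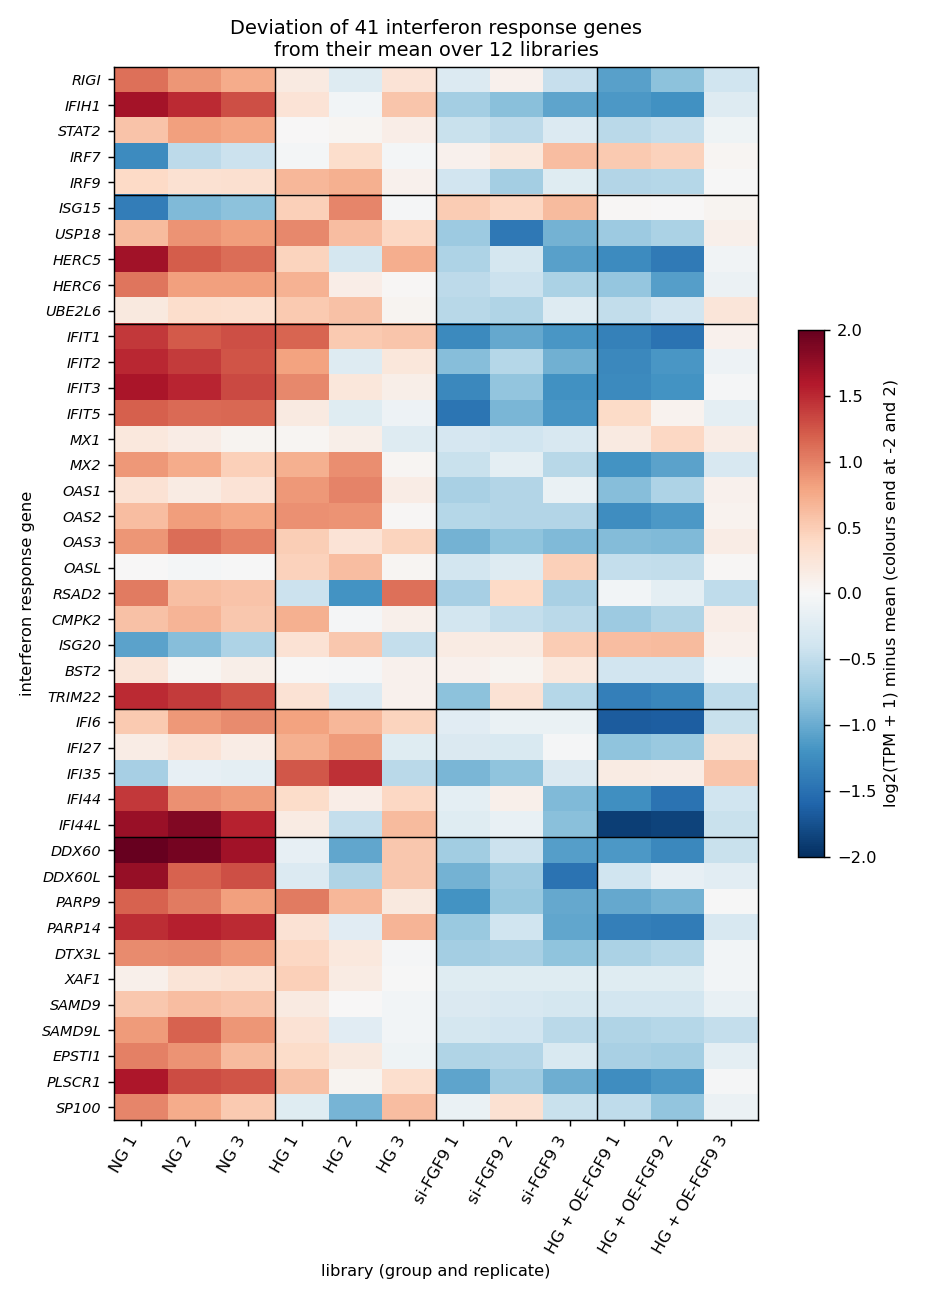
Heat map of the 41 members (rows, by role) in the 12 libraries (columns), as log2(TPM + 1) minus the mean of the gene over all libraries, with colours ending at -2 and 2. Most rows are high in NG, with ISG15, IRF7 and ISG20 low there, and low in HG + OE-FGF9 replicates 1 and 2, while replicate 3 is paler.

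HG versus NG asks what 50 mM glucose did. Most interferon response genes were called neither way. ISG15, a ubiquitin-like modifier and secreted signal, was the 1 member called higher, and 10 of 38 were called lower: IFIH1, IFIT2, IFIT3, IFIT5, TRIM22, IFI44L, DDX60, DDX60L, PARP14 and PLSCR1. Among all 14639 genes 1.65% were called higher and 22.7% lower, so that the 26.3% of members called lower is near the background. The median log2 fold change was -0.64 over the members and -0.39 over all genes, and the 27 members not called ranged from -1.06 (HERC5) to 1.07 (IFI35). In bulk RNA, fewer cells that express a gene and less of its RNA per cell cannot be told apart. Without overlap between the groups, 20 members were lower and 4 higher in HG, beside 46.5% and 10.7% of all genes. Scaling each library by the median of ratios, which moved the median of all genes to 0.01, turned the counts of members to 4 higher and 3 lower, beside 7.43% and 8.27% of all genes, and quantile normalization gave 4 and 2, beside 6.94% and 8.33%. With an adjusted p under 0.05 as the rule 3 members were higher and 17 lower, beside 8.53% and 40.5%.

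Of the sensors and signalling members, IFIH1 (MDA5, a sensor of long double-stranded RNA) was at 15.1, 13.2 and 11.4 TPM in NG and 5.12, 3.89 and 6.46 TPM in HG. The HG libraries lay below every NG library (log2 fold change -1.22, SE 0.27, adjusted p 0.00339). RIGI, which encodes the sensor RIG-I, was at 13.8, 11.8 and 10.5 TPM in NG and 6.85, 4.81 and 7.37 TPM in HG, again without overlap, but at a log2 fold change of -0.84 it did not reach the fold required. STAT2 stood at 29.6, 35.5 and 34.1 TPM in NG and 19.7, 20.2 and 21.7 TPM in HG (log2 fold change -0.66) and IRF9, its partner in ISGF3, at 29.6, 27.4 and 27.9 and 35.4, 36.6 and 23.4 TPM, with overlap. IRF7, the factor that amplifies interferon production, went the other way, from 6.02, 10.7 and 11.5 TPM to 15.3, 20.4 and 15.3 TPM. Its groups did not overlap, and its log2 fold change of 0.82 (adjusted p 0.0159) missed the fold threshold.

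ISG15 was at 143, 201 and 212 TPM in NG and 519.6, 740.0 and 369.6 TPM in HG. Every HG library was above every NG library (log2 fold change 1.51, SE 0.22, adjusted p 0.000765), and ISG15 was called higher under each of 4 scalings (as deposited, median of ratios, quantile and GC content removed). The genes of the enzymes that attach and remove ISG15 were not called: UBE2L6, the conjugating enzyme, at 82.4 ± 4.77 in NG and 88.8 ± 16.7 TPM in HG (SD, n = 3), HERC5, the ligase, at 74.3 ± 16.4 and 36.2 ± 13.2 TPM, and USP18, the protease, at 6.57 ± 0.709 and 6 ± 1.36 TPM.

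Of the antiviral effectors 4 of 14 tested were lower and 0 higher (unadjusted p under 0.01 and the fold threshold, limma), beside the 22.7% and 1.65% of all genes. With GC content removed 0 were lower and 1 higher, beside 3.06% and 3.78% of all genes. TRIM22, a ubiquitin ligase that restricts viruses, was at 9.87, 9.17 and 8.29 TPM in NG and 3.7, 2.19 and 3.09 TPM in HG (log2 fold change -1.35, SE 0.31, adjusted p 0.0041). ISG20, an RNA exonuclease, was higher in every HG library, at 9.37, 11 and 13.2 TPM in NG and 25.6, 30.5 and 14.6 TPM in HG, without reaching the fold required (log2 fold change 0.96). IFI44L, the 1 member called lower among the 5 IFI members, was at 31.4, 34.2 and 27.4 TPM in NG and 9.91, 6.01 and 14.2 TPM in HG (log2 fold change -1.60, SE 0.38, adjusted p 0.00541). IFI35 was split within HG, at 58, 68 and 16.2 TPM against 14.7, 21.3 and 20.8 TPM in NG, the third HG library lying among those of NG.

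Among the other induced genes 4 of 9 tested were lower, beside 22.7% of all genes and 48.1% of those with a GC content under 45%. With GC content removed 1 was lower, beside 3.06% of all genes. DDX60, a helicase that assists RIG-I, had the largest decrease of all members, from 23.9, 20.2 and 17 TPM in NG to 3.98, 1.72 and 7.11 TPM in HG (log2 fold change -2.14, SE 0.36, adjusted p 0.00129). It was the only member called lower under each of the 4 scalings. Its relative DDX60L was at 21.6, 14.4 and 15.6 TPM in NG and 4.62, 3.47 and 8.84 TPM in HG (log2 fold change -1.51, SE 0.29, adjusted p 0.00211). PARP14 was at 20.5, 21.8 and 20.7 TPM in NG and 8.52, 5.6 and 11.4 TPM in HG, with no overlap (log2 fold change -1.26, SE 0.31, adjusted p 0.00624).

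**Figure D2:**
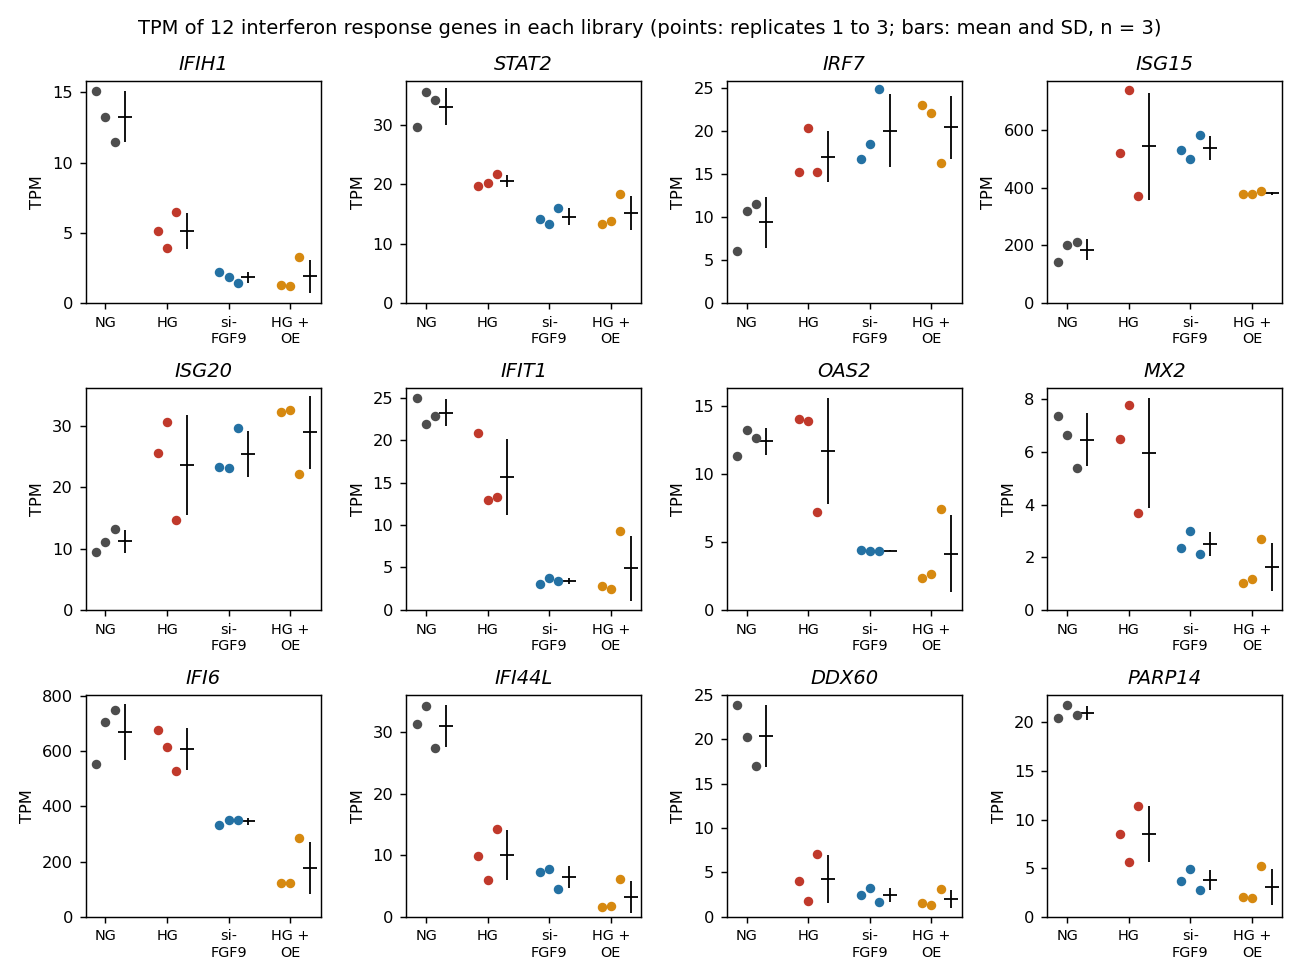
TPM (y axis, from 0) of 12 members in the 3 replicates of each group (points, left to right replicates 1 to 3; x axis, group), with the mean and SD beside them. ISG15, ISG20 and IRF7 are lowest in NG, DDX60, IFI44L, PARP14 and IFIH1 highest in NG, and IFI6, OAS2 and MX2 are lower in HG + OE-FGF9 replicates 1 and 2 than in replicate 3.

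The changes of the members in HG ran along with the base composition of their transcripts. Taking the longest transcript of each gene, the 38 members had a median GC content of 44.2% (37.4% to 66.8%) against 48.3% over all genes tested. Across the 38 members the Spearman correlation of GC content with the fold change was 0.847 for HG against NG and 0.701 for si-FGF9 against NG, and across all genes 0.636 and 0.566 (genes share their libraries and are not independent replicates). In HG + OE-FGF9 versus HG it was 0.178 over the members and 0.288 over all genes. All 10 members called lower in HG were among the 20 with a GC content under 45%, where 50% of members and 48.1% of all 5314 genes were lower. When a smooth trend on GC content was removed from each library, 1 member was lower (DDX60) and 2 higher (ISG15 and ISG20), beside 3.06% and 3.78% of all genes, and the median over the members was -0.0066.

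**Figure D3:**
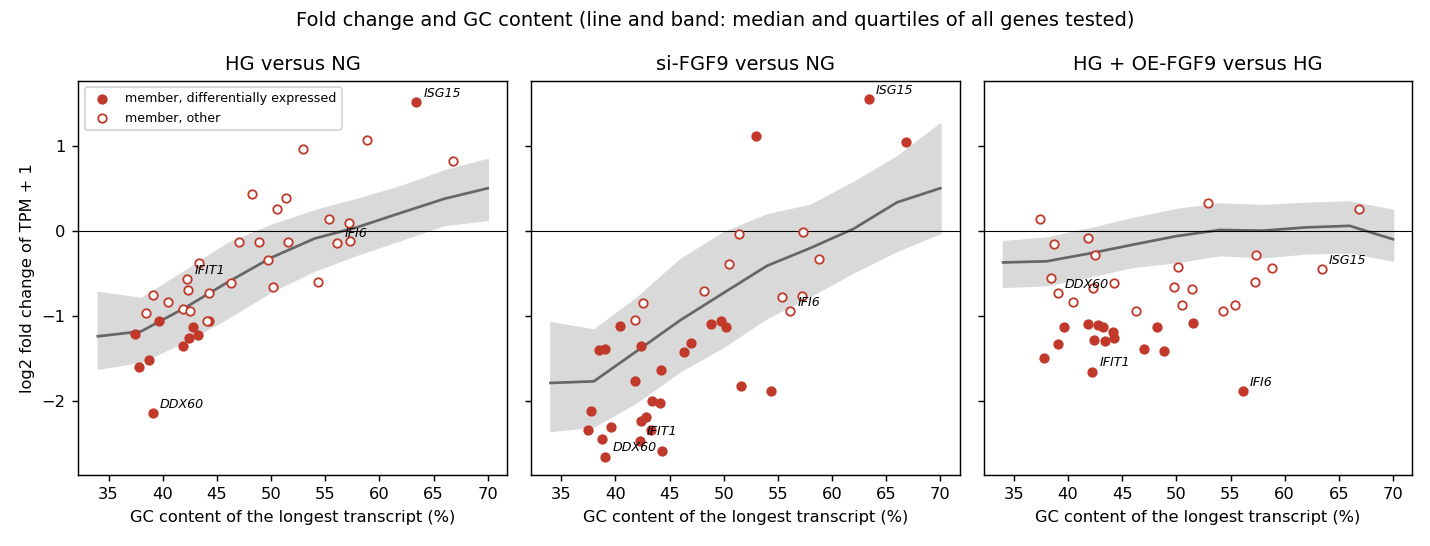
Log2 fold change of TPM + 1 (y axis) against the GC content of the longest transcript in percent (x axis) for the 38 members tested (points, filled where differentially expressed), with the median and quartiles of all genes tested in bins of 4% GC (line and band). In HG versus NG 10 members lie above the band, 22 within it and 6 below, in si-FGF9 versus NG 3, 21 and 14, and in HG + OE-FGF9 versus HG 2 (IFIT5 and ISG20), 6 and 30.

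In si-FGF9 versus NG, which asks what the siRNA against FGF9 did in 5.5 mM glucose, most members were called lower. IRF7, ISG15 and ISG20 were higher and 25 of 38 lower, 65.8% of the members beside 42.2% of all genes lower and 5.36% higher. The median log2 fold change was -1.37 over the members and -0.79 over all genes, and the 10 members not called ranged from -1.04 (RSAD2) to -0.01 (BST2). All si-FGF9 libraries were below all NG libraries in 32 members and above them in 3, beside 62.1% and 14.3% of all genes. The 25 comprise 3 of 5 sensors and signalling members, 3 of 5 members of the ISG15 pathway, 9 of 14 antiviral effectors, 2 of 5 IFI members and 8 of 9 other induced genes. They include CMPK2, SAMD9L and EPSTI1, which passed the filter only through NG and HG libraries. Among the 32 members at 1 TPM or more in all 12 libraries, 19 were lower and 3 higher. The median of these 32 was -1.225, beside -0.74 over all genes filtered in that way. Shares of all genes called with this filter are not given here, so the counts stand without their background. Scaling by the median of ratios, which moved the median of all genes to 0, gave 4 members higher and 13 lower, beside 19.2% and 17.5% of all genes, and quantile normalization gave 3 and 11, beside 16.2% and 17.1%. With an adjusted p under 0.05 as the rule 3 were higher and 30 lower, beside 11.6% and 57.7%. The NG libraries are shared with the comparison of HG and NG, so that the results are not independent.

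IFIH1 was at 2.19, 1.85 and 1.45 TPM in si-FGF9, each below the lowest NG library (log2 fold change -2.33, SE 0.27, adjusted p 1.8e-05). STAT2 stood at 14.2, 13.4 and 16.1 TPM, also below NG (log2 fold change -1.13, SE 0.16, adjusted p 5.92e-05), and RIGI at 4.75, 6.37 and 4.03 TPM (log2 fold change -1.12), although with GC content removed the value of RIGI turned to 0.42. IRF9 was at 16.6, 13.4 and 18.4 TPM (log2 fold change -0.78), short of the fold required. IRF7 rose to 16.8, 18.5 and 24.9 TPM, above all NG libraries (log2 fold change 1.04, SE 0.25, adjusted p 0.00229). With GC content removed IFIH1 was still called lower (-1.09), while STAT2 (-0.49) and IRF7 (0.61) were not called. By median of ratios 1 of these 5 genes was lower and 1 higher, beside 17.5% and 19.2% of all genes.

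ISG15 was at 529.6, 499 and 583 TPM (log2 fold change 1.55, SE 0.22, adjusted p 6.27e-05) and ISG20 at 23.3, 23.2 and 29.7 TPM (log2 fold change 1.12, SE 0.26, adjusted p 0.00191), both without overlap with NG and both called higher under each of the 4 scalings. USP18, the ISG15 protease and a brake on the receptor, fell to 1.65, 0.62 and 1.26 TPM, against 5.77, 7.12 and 6.82 TPM in NG (log2 fold change -1.82). In the ISG15 pathway the modifier was called higher and USP18, HERC5 and HERC6 lower, where 42.2% of all genes were lower. UBE2L6 also lay below all NG libraries, short of the fold required (log2 fold change -0.77). With GC content removed HERC5 (-0.88) and HERC6 (-0.52) were no longer called.

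IFIT3 was at 52.1, 48.6 and 41.9 TPM in NG and 6.02, 9 and 6.45 TPM in si-FGF9 (log2 fold change -2.58, SE 0.32, adjusted p 2.97e-05). IFIT1 was at 24.9, 21.8 and 22.8 TPM in NG and 3.04, 3.8 and 3.35 TPM in si-FGF9 (log2 fold change -2.46, SE 0.35, adjusted p 5.99e-05). IFIT5 went from 10.7, 10.2 and 10.3 TPM to 0.86, 1.71 and 1.25 TPM (log2 fold change -2.34, SE 0.21, adjusted p 6.98e-06). In all of these IFIT genes the si-FGF9 libraries were several times below the lowest NG library. DDX60 was at 2.47, 3.18 and 1.62 TPM (log2 fold change -2.65, SE 0.36, adjusted p 5.04e-05) and DDX60L at 2.52, 3.15 and 1.43 TPM (log2 fold change -2.45, SE 0.29, adjusted p 2.37e-05). BST2, at 628 ± 43.7 TPM in NG and 622 ± 37.5 TPM in si-FGF9 (SD, n = 3), and OASL, at 55.6 ± 1.16 and 56.2 ± 19.3 TPM, were not called and overlapped.

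With the GC trend removed, 6 members were lower in si-FGF9 (IFIH1, USP18, IFIT1, IFIT3, OAS3 and DDX60) and 2 higher (ISG15 and ISG20), beside 12% and 12.3% of all genes, and the median over the members was -0.47. IFIH1, IFIT1, IFIT3 and DDX60 were called lower under each of the 4 scalings. Among the 20 members with a GC content under 45%, 18 were lower, 90% beside 70.3% of all genes of that GC content. Setting si-FGF9 against HG directly tests whether the 2 effects against NG differed. In this comparison 12 members were lower and 0 higher in si-FGF9 (limma, with the fold and unadjusted p thresholds), beside 9.67% and 1.4% of all genes, with a median of -0.83 against -0.38, and at an unadjusted p under 0.05 with no fold threshold 25 were lower and 0 higher, beside 39.2% and 7.02% of all genes. The 12 lower by the fold and unadjusted p thresholds were IFIH1, USP18, IFIT1, IFIT2, IFIT3, IFIT5, OAS1, OAS2, OAS3, IFI35, PARP9 and PLSCR1. With the GC trend removed 5 were lower and 0 higher (USP18, IFIT1, IFIT3, IFI35 and PARP9), beside 2.52% and 3.34% of all genes. By median of ratios 4 were lower and 0 higher, beside 2.23% and 5.77%, and by an adjusted p under 0.05 there were 23 lower and 0 higher, beside 28.1% and 4.75%.

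HG + OE-FGF9 versus HG asks what FGF9 overexpression did in high glucose. Genes of every role fell, from the sensor IFIH1 to the effectors IFIT1, MX2 and IFI6, while ISG15, ISG20 and IRF7 were not called. Of 38 members 16 were lower and 0 higher, 42.1% beside 2.67% of all genes lower and 2.94% higher (limma, unadjusted p under 0.01 and the fold threshold). With an adjusted p under 0.05 in place of that rule 18 were lower and 0 higher, beside 4.71% and 4.82% of all genes. The median log2 fold change was -0.87 over the members and -0.13 over all genes, and 35 of 38 values were below 0. At an unadjusted p under 0.05 with no fold threshold 29 were lower and 0 higher, beside 16.9% and 11.3% of all genes. The 22 members not called ranged from -0.94 (HERC6 and OAS3) to 0.32 (ISG20). All HG + OE-FGF9 libraries were below all HG libraries in 22 members and above in 0, beside 9.95% and 12.2% of all genes. The 16 were IFIH1, USP18, HERC5, IFIT1, IFIT2, IFIT3, MX2, OAS1, OAS2, TRIM22, IFI6, IFI44, IFI44L, PARP9, PARP14 and PLSCR1. In 12 of them the groups did not overlap, and in all 16 HG + OE-FGF9 replicate 3 was the highest of its group.

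The count depended on single libraries. It was 7 when HG + OE-FGF9 replicate 1 was left out, 8 when replicate 2 was and 21 when replicate 3 was. Leaving out HG replicate 1, 2 or 3 gave 11, 18 and 15. The median over the members stayed between -1.14 and -0.73 in these 6 fits. In a fit of the 6 libraries of the comparison alone 10 members were lower. The shares of all genes called in these fits with fewer libraries are not given here. A change of the members and of the background cannot be told apart in these counts. HG + OE-FGF9 replicates 1 and 2 also had the highest sums of small nuclear and nucleolar RNAs (above), whose part in the result was not tested.

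IFI6, a mitochondrial and endoplasmic reticulum protein that protects cells from death and viral replication, had the largest decrease, from 678, 615 and 526 TPM in HG to 122, 123 and 286 TPM in HG + OE-FGF9. All 3 values were below the lowest HG library (log2 fold change -1.89, SE 0.27, adjusted p 0.00187), and replicate 3 was well above the other two. The mean in HG + OE-FGF9 was 0.292 of that in HG. IFI44L was at 9.91, 6.01 and 14.2 TPM in HG and 1.66, 1.7 and 6.2 TPM in HG + OE-FGF9 (log2 fold change -1.50, SE 0.38, adjusted p 0.031), where replicate 3 overlapped the lowest HG library. IFI44 was also lower, whereas IFI27, at 368 ± 133 TPM in HG and 202 ± 89.9 TPM in HG + OE-FGF9, and IFI35, at 47.4 ± 27.5 and 29.8 ± 5.24 TPM, were not called (SD, n = 3).

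Of the antiviral effectors 7 of 14 tested were lower and 0 higher, beside 2.67% and 2.94% of all genes. With GC content removed 6 were lower and 0 higher, beside 2.18% and 3.03%. By median of ratios 5 were lower and 0 higher, beside 1.78% and 3.64%. IFIT1 was at 20.8, 12.9 and 13.2 TPM in HG and 2.83, 2.5 and 9.33 TPM in HG + OE-FGF9, without overlap (log2 fold change -1.66, SE 0.35, adjusted p 0.0129). MX2, a dynamin-like GTPase that blocks viral entry into the nucleus, was at 6.48, 7.76 and 3.68 TPM in HG and 1.01, 1.19 and 2.68 TPM in HG + OE-FGF9, also without overlap (log2 fold change -1.41, SE 0.28, adjusted p 0.00996). OAS2 was at 14, 13.9 and 7.16 TPM in HG and 2.37, 2.61 and 7.43 TPM in HG + OE-FGF9, where the highest value exceeded the lowest of HG (log2 fold change -1.38, SE 0.33, adjusted p 0.0235). OAS1, shown above with GAAACGAAA but no match to the ISRE pattern searched, was at 44.6, 48.6 and 26.6 and 12.9, 15.3 and 25.4 TPM, just without overlap (log2 fold change -1.13). Unlike its neighbours IFIT1, IFIT2 and IFIT3, IFIT5 was not called, at 4.79, 3.34 and 3.77 TPM in HG and 5.64, 4.35 and 3.46 TPM in HG + OE-FGF9. RSAD2 (viperin), at 9.27, 5.02 and 28.6 and 12.2, 11.1 and 8.68 TPM, and ISG20, at 25.6, 30.5 and 14.6 and 32.2, 32.5 and 22.1 TPM, overlapped between the groups.

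Among the sensors and signalling members IFIH1 was lower, at 1.29, 1.19 and 3.25 TPM against 5.12, 3.89 and 6.46 TPM in HG (log2 fold change -1.13, SE 0.27, adjusted p 0.0217). RIGI at 2.26, 2.93 and 4.26 TPM (log2 fold change -0.83), STAT2 at 13.2, 13.9 and 18.4 TPM (-0.42) and IRF9 at 14.3, 14.5 and 21.9 TPM (-0.87) lay below all HG libraries without reaching the fold required. IRF7 was at 23, 22.1 and 16.3 TPM and overlapped HG. In the ISG15 pathway USP18 and HERC5 were lower. ISG15 was at 379, 377 and 388 TPM in HG + OE-FGF9, within the range of HG (log2 fold change -0.45, adjusted p 0.196). PARP9, PARP14 and PLSCR1, a scramblase, were lower among the other induced genes, at log2 fold changes of -1.29, -1.28 and -1.13, and DDX60, at 1.54, 1.3 and 3.13 TPM, was not called (log2 fold change -0.73).

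With the GC trend removed, 13 members were lower and 0 higher, beside 2.18% and 3.03% of all genes, with a median of -0.84. By median of ratios 12 and by quantile normalization 14 were lower, beside 1.78% and 2.17% of all genes, and 0 were higher by either, beside 3.64% and 3.33%. HERC5, IFIT1, IFIT3, MX2, OAS2, IFI6, IFI44, IFI44L, PARP9 and PARP14 were called lower under all 4 scalings. By GC content, 11 of the 20 members under 45% were lower (55% beside 3.39% of all genes), 4 of the 11 from 45% to under 55% (36.4% beside 2.35%) and 1 of the 7 from 55% (14.3% beside 2.28%). With the GC trend removed and single libraries left out, 4 members were lower when HG + OE-FGF9 replicate 1 was missing, 7 when replicate 2 was and 19 when replicate 3 was, against 9, 10 and 16 for the HG replicates in turn. These counts, too, stand without the shares of all genes.

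**Figure D4:**
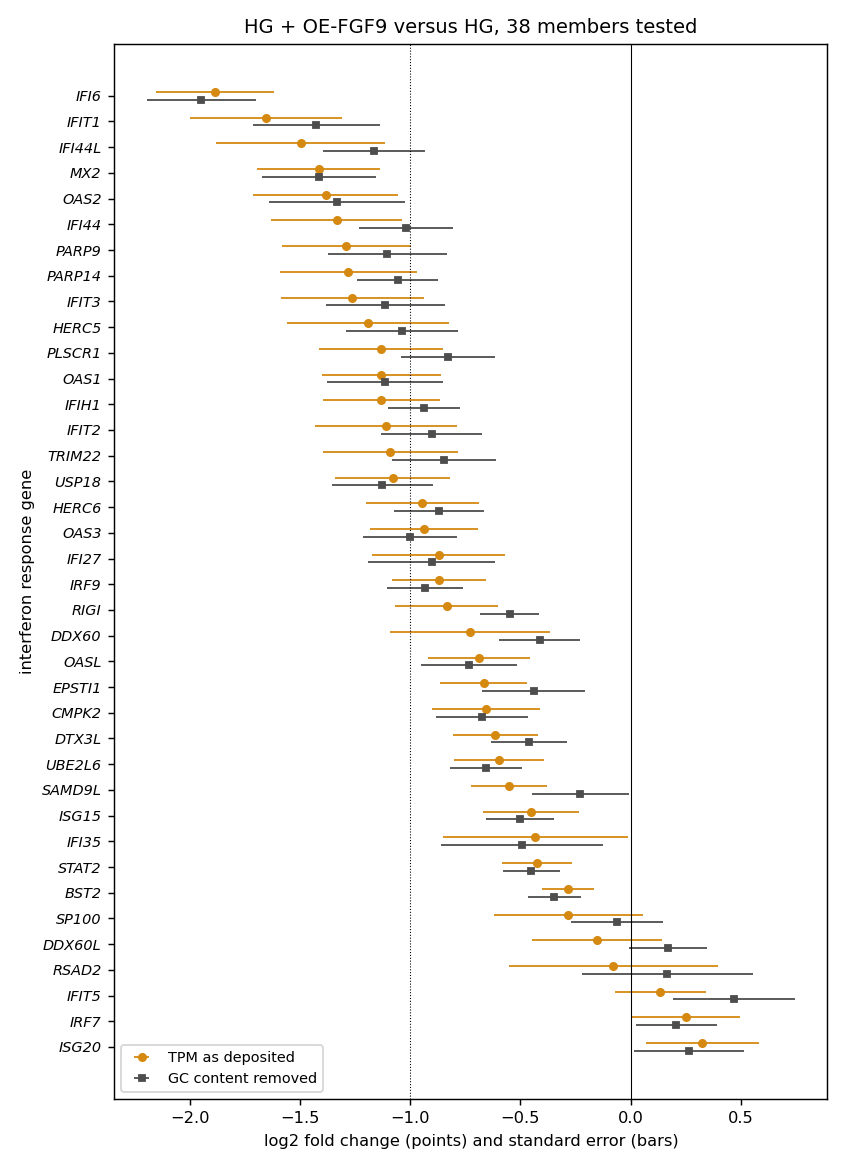
Log2 fold change of the 38 members in HG + OE-FGF9 versus HG (x axis) with its standard error (bars), as deposited (circles) and with the GC trend removed (squares), in order of the first. IFI6 is farthest to the left at -1.89, and IFIT5, IRF7 and ISG20 lie to the right of 0 in both.

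**Figure D5:**
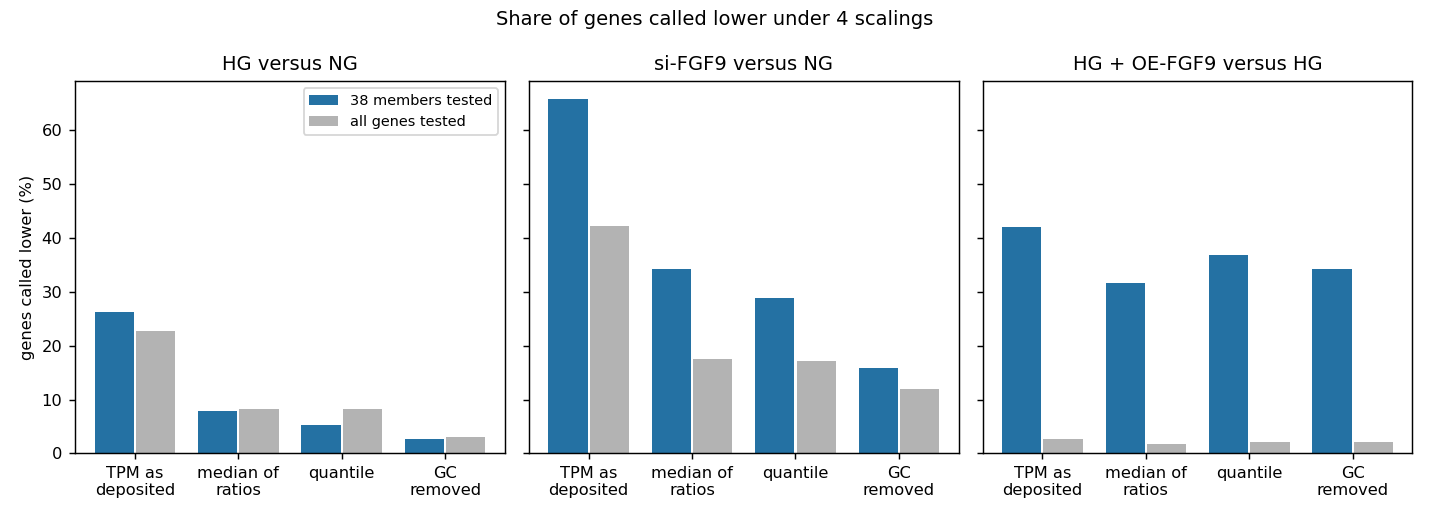
Percent of the 38 members and of all genes tested that were called lower (bars, from 0) in 3 comparisons under 4 scalings. In HG versus NG the members reach 2.63% to 26.3% and all genes 3.06% to 22.7%, and in HG + OE-FGF9 versus HG the members reach 31.6% to 42.1% and all genes 1.78% to 2.67%.

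HG + OE-FGF9 was also set against NG. IRF7, ISG15 and ISG20 were higher and 26 of 38 members lower, beside 7.01% and 32.7% of all genes, with a median log2 fold change of -1.52 against -0.51. With the GC trend removed 1 was higher (ISG20) and 13 were lower, beside 11.3% and 11.8% of all genes, and the median over the members was -0.70. By median of ratios 3 were higher and 17 lower, beside 17.8% and 16.9%, and by an adjusted p under 0.05 there were 3 and 31, beside 16.4% and 48.5%. With the GC trend removed IFIT5, lower as deposited at a log2 fold change of -1.08, turned to 0.38. The 26 members lower as deposited include SAMD9L and EPSTI1, which were under 1 TPM in every HG + OE-FGF9 library. Among the 32 members at 1 TPM or more in all 12 libraries, 21 were lower and 3 higher. Their median was -1.545, beside -0.46 over all genes filtered in that way. Shares of all genes called with this filter are not given here either. This comparison shares its libraries with those above.

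Among members with a promoter and a test, the ISRE pattern searched was matched in 19 and not in 12, with a median GC content of the transcripts of 43.3% and 47.3%. The 12 include OAS1, RIGI and RSAD2, which hold GAAACGAAA, so that this split does not part members with and without an ISRE. In HG + OE-FGF9 versus HG 9 of the 19 and 2 of the 12 were lower, with median log2 fold changes of -0.94 and -0.63. In si-FGF9 versus NG 14 of the 19 and 6 of the 12 were lower, and in HG versus NG 8 of the 19 and 0 of the 12, beside 2.67%, 42.2% and 22.7% of all genes in the 3 comparisons. With GC content removed the counts were 8 and 2 in HG + OE-FGF9 versus HG, 5 and 0 in si-FGF9 versus NG, and 1 and 0 in HG versus NG. Of all genes 2.18%, 12% and 3.06% were then lower, in the same order.

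Upstream of the members, the interferon genes themselves were close to absent. Of 21 interferon ligand genes 15 were listed at 0 in all 12 libraries, all 13 interferon alpha genes among them, and none could be tested. IFNB1, interferon beta, was at 0.11, 0 and 0.08 TPM in NG, 1.11, 0.89 and 0.46 TPM in HG, 0.43, 0 and 0 TPM in si-FGF9 and 1.11, 0.42 and 0.32 TPM in HG + OE-FGF9. Its values in HG and HG + OE-FGF9 lay above those of NG but were at most 1.11 TPM, and without known depth the reads behind them are unknown.

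Of 16 genes of the interferon receptors and the JAK-STAT pathway 6 were lower in HG versus NG, 11 in si-FGF9 versus NG and 2 in HG + OE-FGF9 versus HG, and 0 were higher in any of them (at an unadjusted p under 0.05 with no fold threshold 2, 2 and 1 were higher). Of all genes 22.7%, 42.2% and 2.67% were lower. With GC content removed 1, 5 and 2 of the 16 were lower and 0 higher, beside 3.06%, 12% and 2.18% of all genes lower and 3.78%, 12.3% and 3.03% higher. By median of ratios 2, 4 and 2 were lower and 2, 3 and 0 higher, beside 8.27%, 17.5% and 1.78% of all genes lower and 7.43%, 19.2% and 3.64% higher. SOCS3, a feedback inhibitor of JAK kinases, was at 44.2, 45.9 and 48.1 TPM in NG, 12.1, 11.3 and 9.75 TPM in HG, 2.67, 3.77 and 1.88 TPM in si-FGF9 and 1.45, 1.84 and 5.37 TPM in HG + OE-FGF9, lower in the 3 comparisons with GC content removed as well. IFNAR1 and IFNAR2, the receptor chains, were lower in si-FGF9 versus NG (log2 fold changes -1.38 and -1.42), at 25 ± 3.31 and 36.4 ± 2.26 TPM in NG and 9.28 ± 3.11 and 13 ± 1.41 TPM in si-FGF9 (SD, n = 3), and with GC content removed at -0.02 and -0.58. JAK1 was lower in HG and si-FGF9 (log2 fold changes -1.43 and -2.12), and with GC content removed, at -0.90 and -1.20, the call in HG was lost. TYK2 was not called, at 29.7 ± 1.29 TPM in NG and 57.8 ± 7.17 TPM in HG + OE-FGF9.

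Of 19 tested genes of nucleic acid sensing and interferon induction 8 were lower in HG versus NG, 12 in si-FGF9 versus NG and 0 in HG + OE-FGF9 versus HG by limma (5 at an unadjusted p under 0.05 with no fold threshold), where the median of -0.26 was near the -0.13 of all genes. With GC content removed 0, 6 and 0 were lower, beside 3.06%, 12% and 2.18% of all genes. By median of ratios 1, 6 and 0 were lower and 0, 2 and 0 higher, beside 8.27%, 17.5% and 1.78% of all genes lower and 7.43%, 19.2% and 3.64% higher. As deposited 22.7% and 42.2% of all genes were lower, so that the counts for HG and si-FGF9 depended on the scaling. Of 43 tested genes in a list of other interferon-induced genes, 8, 20 and 5 were lower in the same comparisons and 0 higher (5, 3 and 0 higher at an unadjusted p under 0.05 with no fold threshold). The first 2 counts are near the shares of all genes lower, 22.7% and 42.2%, and the last stands beside 2.67%. With GC content removed 1, 9 and 5 were lower and 1, 2 and 0 higher, beside 3.06%, 12% and 2.18% of all genes lower and 3.78%, 12.3% and 3.03% higher. By median of ratios 1, 10 and 3 were lower and 2, 9 and 0 higher, beside the shares of all genes just given for that scaling. The 5 in HG + OE-FGF9 versus HG were TNFSF10 (TRAIL), IFITM1, GBP2, CCL5 and SAMHD1. TNFSF10 went from 25.8, 13.8 and 7.52 TPM in HG to 1.64, 1.24 and 3.35 TPM (log2 fold change -2.35, SE 0.37, adjusted p 0.00309) and IFITM1, which blocks viral fusion, from 335, 325 and 379 TPM to 67.2, 66.3 and 193 TPM (log2 fold change -1.85, SE 0.33, adjusted p 0.00598). CCL5, a chemokine, went from 43.4, 41.5 and 48.8 TPM to 21.3, 20.3 and 18.2 TPM (log2 fold change -1.12, SE 0.13, adjusted p 0.000491), and in none of these 3 genes did the groups overlap.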

How the data were processed

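Total RNA of 12 HK2 libraries was sequenced, 3 in each of 4 groups taken from the sample labels. The authors deposited TPM values per Ensembl gene, scaled to the same sum in each library and given to 2 decimals. The submitters' processing notes name Bowtie 0.12.2 and the mouse build mm8, at odds with the human identifiers, and the quantifier and annotation are not given in the sources used here. TPM keep no depth, so counting error is unknown. A table repeating the same 12 columns was not used.

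From these values, log2(TPM + 1) was fitted with limma 3.58.1 (R 4.3.3) with a trend of variance on mean, group as the only term. The members, lists and tests were chosen with earlier results of these data known. All members may be named, with library values for the 5 largest changes in each direction and comparison and for the sensors and signalling members. Values of other members were chosen after they were seen. Of other lists, genes called in a comparison are named, at most 4 a list by size, with SAMHD1 added to complete a count, and the receptors, JAK1, TYK2 and IFNB1. Some genes of these lists are not reported here. Symbols came from a names table that matched 62625 of 62703 identifiers, and GC content from the longest transcript in GENCODE 29 (GRCh38), for 96.9% of the genes tested. The GC correction subtracted a natural spline with 5 degrees of freedom from each library. The fit was tested on simulated data. Alternatives were median-of-ratios and quantile scaling, GC content, a pseudocount of 0.1, other thresholds and filters, a fit of 6 libraries, the replicate block and each library left out. The GC correction with the block, or with a library left out, was chosen after seeing the data.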

Additional observations from a re-analysis of the deposited data

How the results depend on the processing

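Values are log2(TPM + 1) differences without known depth, so genes near 1 TPM are the least certain. The median over the members stayed below 0 in each comparison and alternative, but with the GC trend removed it was close to 0 in HG versus NG, at -0.0066 beside -0.02 over all genes. Median-of-ratios scaling gave 4 members higher and 3 lower in HG versus NG (median -0.16), 13 lower in si-FGF9 versus NG (-0.60), 17 lower in HG + OE-FGF9 versus NG (-0.93) and 4 lower in si-FGF9 versus HG (-0.44). Quantile normalization gave 4 higher and 2 lower (-0.17), 11 lower (-0.59), 13 lower (-0.86) and 4 lower (-0.51) in the same order. Removing the GC trend, with or without the replicate block, gave 2 higher and 1 lower in HG versus NG (-0.0066), 6 lower in si-FGF9 versus NG (-0.47), 1 higher and 13 lower in HG + OE-FGF9 versus NG (-0.70), and in si-FGF9 versus HG 5 lower without and 4 with the block (-0.45). By it RIGI reversed to 0.42 in si-FGF9 versus NG and IFIT5 to 0.38 in HG + OE-FGF9 versus NG. A pseudocount of 0.1 gave 2 higher in HG versus NG and medians of -1.81 in si-FGF9 versus NG, -1.18 in HG + OE-FGF9 versus HG, -1.89 in HG + OE-FGF9 versus NG and -1.05 in si-FGF9 versus HG. An adjusted p under 0.05 without a fold threshold gave 3 higher and 17 lower in HG versus NG and 23 lower in si-FGF9 versus HG. An unadjusted p under 0.05 with the fold threshold kept gave 2 higher in HG versus NG, and without the fold threshold 4 higher and 20 lower. The 6-library fit of HG + OE-FGF9 versus HG gave 10 lower. Shares of all genes called with the pseudocount of 0.1, with the unadjusted p and in the 6-library fit are not given here. The cause of these differences was not tested.

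With each library left out in turn, HG versus NG had 1 to 3 higher and 7 to 11 lower (median -0.78 to -0.54), si-FGF9 versus NG 2 to 3 and 24 to 25 (-1.45 to -1.30), HG + OE-FGF9 versus HG 0 to 0 and 7 to 21 (-1.14 to -0.73), HG + OE-FGF9 versus NG 1 to 3 and 24 to 27 (-1.62 to -1.33), and si-FGF9 versus HG 0 to 0 and 8 to 14 (-0.85 to -0.75). In HG versus NG 2 members were higher without NG replicate 3 and 3 without HG replicate 3, and in HG + OE-FGF9 versus NG 1 was without NG replicate 1. With the GC trend removed, HG + OE-FGF9 versus HG had 4 and 7 lower without HG + OE-FGF9 replicates 1 and 2, 19 without replicate 3, and 9, 10 and 16 without HG replicates 1, 2 and 3. Shares of all genes called with a library left out are not given here.

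Deviations of same-numbered libraries from their group means correlated at -0.44 to 0.25 over 14639 genes. The labels do not say whether equal numbers pair the libraries, and these correlations cannot exclude it. With the replicate number as a block the members called lower were 9 in HG and 25 in si-FGF9 against NG, 16 in HG + OE-FGF9 against HG and 26 against NG, and 10 in si-FGF9 against HG. By an adjusted p under 0.05 the block took the count in HG + OE-FGF9 against HG from 18 to 11. Shares of all genes called in the fits with the block are not given here.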
